A study of Mus musculus with 4 samples.

Results

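The 10 genes described here encode immediate early transcription factors and were taken by name from the 27998 genes of the deposited tables. They are *Fos*, *Fosb*, *Jun* and *Junb* of the AP-1 family, *Egr1* and *Egr2*, *Atf3*, *Ier2*, and the nuclear receptor genes *Nr4a1* and *Nr4a2*. All 10 had UMIs (distinct RNA molecules counted by their molecular tags). The cells were CD45-enriched leukocytes from the tibialis anterior of male mice aged 8 to 12 weeks whose muscle had been injured with cardiotoxin, a venom toxin that kills muscle fibres. They were profiled by droplet 3′ single-cell RNA sequencing 2 or 4 days post injury (dpi2, dpi4), with 1 library for each of 4 groups: control at dpi2, KO at dpi2, control at dpi4 and KO at dpi4. In the study, controls carried *Bach1* alleles flanked by loxP sites (Bach1 fl/fl). KO mice carried the same alleles together with Lyz2-Cre, a recombinase driven by *Lyz2* and so made in the myeloid lineage and not in lymphocytes. BACH1 is a heme-binding repressor of transcription. Since each group was 1 library, no spread between animals was measured, no test was run, and every difference below is between 2 libraries.

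Immediate early genes are transcribed within minutes of a stimulus, without new protein synthesis, because the factors that switch them on, such as SRF with its ELK partners and CREB, are already present and are activated by kinases. FOS and FOSB pair with JUN or JUNB to form AP-1 dimers on DNA, EGR1 and EGR2 are zinc finger factors, ATF3 is a stress-induced factor related to AP-1, and NR4A1 and NR4A2 are orphan nuclear receptors that restrain inflammatory genes in macrophages. IER2 is a nuclear immediate early protein outside these families. In immune cells the genes respond to cytokines, microbial products and adhesion, and they are also known to be induced while tissue is enzymatically digested. The cells here were freed with collagenase and DNase before enrichment, so RNA present in the muscle and RNA made during preparation cannot be told apart by these counts.

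Levels are given in CPM, the UMIs of a gene per 1000000 UMIs of all cells of a class in a library, with an exact Poisson 95% interval. Ratios between libraries have an exact conditional binomial 95% interval. Both cover counting error only. A ratio passed a rule of size where it was at least 2-fold either way, its interval left out 1, the pair held at least 50 UMIs and each library held at least 50 cells of the class. The libraries held 57010520 to 80228489 UMIs in 4177 to 6602 barcodes, of which 3433 to 5721 were kept as cells, and pairs of libraries shared 2 to 14 barcode sequences. *Bach1*, the targeted gene, was at nearly the same level in the KO-labelled libraries as in the controls (187 against 189 CPM over all barcodes at dpi2, 217 against 207 at dpi4), and counts per gene cannot show whether an exon was deleted. *Lyz2*, the Cre driver gene, was at 17.5 and 21.6 CPM in the KO-labelled libraries against 9388 and 15845 CPM in the controls. *Hmox1*, a heme oxygenase gene that BACH1 represses, was at 8190 and 6326 CPM against 502 and 417 CPM. Clusters were called macrophage-like, monocyte-like, neutrophil-like, dendritic cell-like, T cell-like or NK cell-like from markers, and the suffix is left out below. Clusters 1, 7, 11, 15 and 17 had none of their own class's markers among their 10 leading genes. Cluster 12 matched neutrophils best but stayed unnamed, so its cells are in no class.

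The upstream sequences of *Junb*, *Nr4a1* and *Nr4a2* are shown because these genes differed most between the genotypes in macrophages, and that of *Fos* for contrast. They are the 250 bases before the annotated start in RefSeq (GRCm38.p6), which matched 8 of the 10 genes (all but *Egr1* and *Ier2*), written in the direction of transcription. Capitals mark the short cAMP response element motif TGACG and the EGR motif GCGNGGGCG, in which N is any base, on either strand (a motif on the other strand reads as its reverse complement). The windows are chr12:85473640-85473889 (plus strand) for *Fos*, chr8:84978749-84978998 (minus) for *Junb*, chr15:101266596-101266845 (plus) for *Nr4a1* and chr2:57124004-57124253 (minus) for *Nr4a2*.
Fos: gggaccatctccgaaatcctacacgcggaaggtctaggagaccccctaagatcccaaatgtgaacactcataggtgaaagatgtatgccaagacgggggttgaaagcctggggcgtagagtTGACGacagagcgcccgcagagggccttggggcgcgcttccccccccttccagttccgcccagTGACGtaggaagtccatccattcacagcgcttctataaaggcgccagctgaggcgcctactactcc
Junb: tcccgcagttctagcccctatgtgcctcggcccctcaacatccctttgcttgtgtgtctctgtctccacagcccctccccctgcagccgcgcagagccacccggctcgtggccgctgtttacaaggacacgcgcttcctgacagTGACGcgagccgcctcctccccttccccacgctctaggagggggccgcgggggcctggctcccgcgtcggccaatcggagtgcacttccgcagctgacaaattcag
Nr4a1: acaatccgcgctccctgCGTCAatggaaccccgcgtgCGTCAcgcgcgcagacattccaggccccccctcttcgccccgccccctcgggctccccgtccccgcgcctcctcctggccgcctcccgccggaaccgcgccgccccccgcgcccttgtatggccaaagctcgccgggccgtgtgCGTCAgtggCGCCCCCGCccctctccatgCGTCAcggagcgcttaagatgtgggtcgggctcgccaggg
Nr4a2: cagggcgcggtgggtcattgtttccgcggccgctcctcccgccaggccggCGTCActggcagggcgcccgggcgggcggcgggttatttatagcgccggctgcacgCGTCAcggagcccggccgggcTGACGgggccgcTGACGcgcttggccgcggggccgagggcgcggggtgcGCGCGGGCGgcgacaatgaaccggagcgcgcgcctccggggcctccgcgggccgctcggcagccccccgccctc
The *Nr4a1* and *Nr4a2* windows each held 4 short motifs and 1 EGR motif. Of 27025 upstream windows of the same length, 0.152% held at least 4 short motifs, 17.9% held at least 1 and 4.65% held an EGR motif. The limit of 4 equals the count in the *Nr4a1* and *Nr4a2* windows. These were 74.4% and 80% G or C, and the 27025 windows were not matched for this. *Fos* held 2 short motifs, which started 129 and 66 bases before the gene start, *Egr2* held 2 in 3 of its 5 windows, *Junb* and *Atf3* held 1, and *Fosb* held 1 with an EGR motif. Neither the full cAMP response element TGACGTCA (1.62% of windows), the AP-1 motif TGANTCA (6.87%) nor the NR4A motif AAAGGTCA (1.31%) was present in any of the 8 genes' windows. The CArG box, the motif bound by SRF and searched by its name (1.40% of windows), was present in 4 of the 5 windows of *Egr2*, 3 of which overlap and hold the same box and the same short motifs. A match of letters is not a binding site, and these windows are short.

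The first comparison asked where among the leukocytes the 10 genes were expressed. They were highest as a group in neutrophils, where they summed to 16386 CPM (95% interval 16185 to 16589) for the control at dpi2, 15218 (15079 to 15358) in the KO-labelled library at dpi2 and 15500 (15103 to 15906) in the control at dpi4. In the other leukocyte classes the sum lay between 2921 CPM, in NK cells of the KO-labelled library at dpi4, and 8597 CPM, in monocytes of the KO-labelled library at dpi2. The neutrophil sum was 3.80-fold (3.75 to 3.85) that of macrophages in the control at dpi2, 2.36-fold (2.34 to 2.38) in the KO-labelled library at dpi2 and 2.17-fold (2.12 to 2.23) in the control at dpi4. In neutrophils *Junb* made up the largest part of the sum, followed by *Egr1*, and the genes did not share one order of classes. *Junb*, *Egr1*, *Egr2*, *Ier2* and *Nr4a1* were highest in neutrophils in all 3 libraries with at least 50 neutrophils, whereas *Fosb* was highest there in none.

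**Figure D1:**
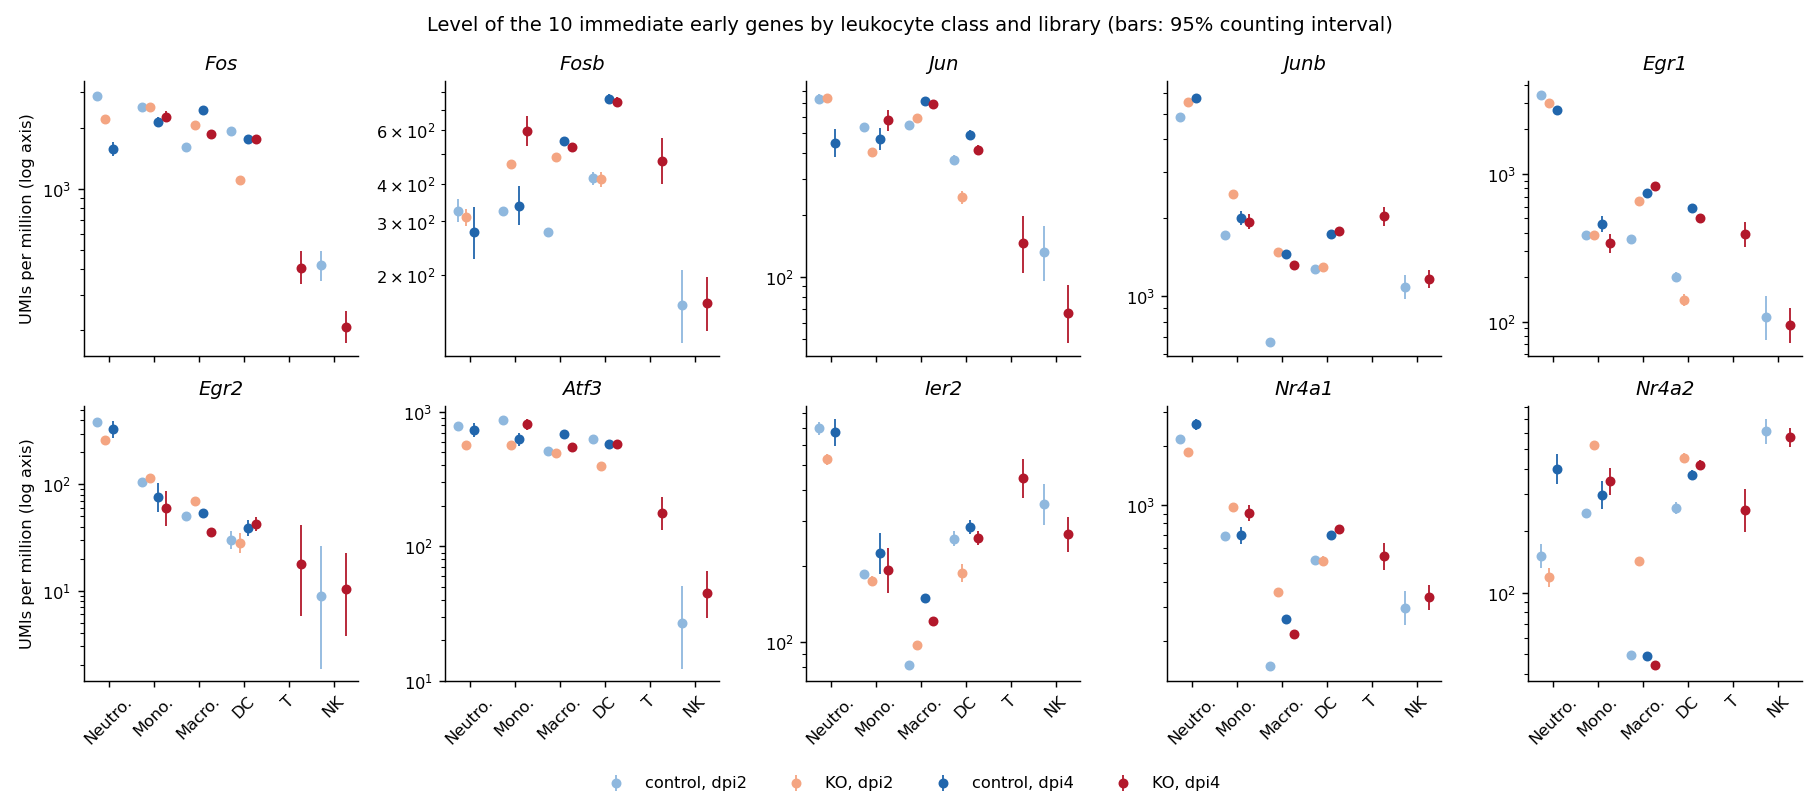
Levels of the 10 genes in CPM (log axis) by leukocyte class, with 1 point per library and exact Poisson 95% intervals. Neutrophils lead for *Junb*, *Egr1*, *Egr2*, *Ier2* and *Nr4a1*, NK cells sit at the bottom for *Fos*, *Jun* and *Atf3* and near the top for *Nr4a2*.

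Among the FOS genes, *Fos* (GRCm38, chromosome 12, 85473890 to 85477273, plus strand) separated the myeloid classes from T and NK cells. In myeloid classes it ranged from 1111 CPM (1074 to 1148), in dendritic cells of the KO-labelled library at dpi2, to 2868 CPM (2784 to 2954), in neutrophils of the control at dpi2. In NK cells it was at 419 CPM (352 to 494) in the control at dpi2 and 208 CPM (172 to 248) in the KO-labelled library at dpi4, and in T cells of the latter at 408 CPM (337 to 490). Every lymphocyte value thus lay below every myeloid value. *Fosb*, whose protein also pairs with JUN proteins, was, among leukocytes, highest in dendritic cells in 3 of 4 libraries. Its levels there were 416, 413, 762 and 742 CPM (control and labelled KO at dpi2, then at dpi4), and in the KO-labelled library at dpi2 macrophages stood above them at 490 CPM (482 to 498).

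The JUN genes differed from each other in their order of classes. *Junb* (chromosome 8, 84974484 to 84978718, minus strand) was at 4860, 5579 and 5746 CPM in neutrophils, and no other leukocyte class exceeded 2462 CPM. Macrophages of the control at dpi2 held the lowest *Junb* level of all, 668 CPM (660 to 676). T cells, of which only the KO-labelled library at dpi4 had enough, were at 2025 CPM (1862 to 2198), an interval that overlapped that of the monocytes beside them. *Jun* was low in lymphocytes, at 132 CPM (95.7 to 177) and 66.9 CPM (47.6 to 91.5) in NK cells and 146 CPM (105 to 198) in T cells. In neutrophils it was at 734 and 744 CPM at dpi2, the highest class in both libraries, and at 449 CPM (384 to 523) at dpi4, where macrophages led with 718 CPM (711 to 725).

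*Egr1*, a factor induced by growth factors and adhesion, was also higher in neutrophils than in the other leukocyte classes. It was at 3404, 3027 and 2722 CPM in neutrophils and at no more than 824 CPM in any other leukocyte class, and the ratio of neutrophils to macrophages was 9.34 (9.05 to 9.64), 4.66 (4.54 to 4.77) and 3.66 (3.43 to 3.89) in the same libraries. Single clusters came closer, with 2904 CPM in the unnamed cluster 12 in the KO-labelled library at dpi2, and 1567 and 2067 CPM in macrophage cluster 6 at dpi4. Outside the leukocytes, *Egr1* was at 1830 CPM in fibroblast cluster 25 and 1258 CPM in endothelial cluster 24 over all libraries, and at 1556 CPM in muscle cluster 23 of the control at dpi4. *Egr2* followed at lower counts, with 382, 261 and 328 CPM in neutrophils and at most 116 CPM in another leukocyte class. In NK cells *Egr2* rested on 3 and 6 UMIs, and in T cells on 5, so that these levels were not distinguishable at this depth.

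*Atf3* was higher in every myeloid class than in lymphocytes. It ranged from 399 to 864 CPM in the 4 myeloid classes, was at 178 CPM (132 to 234) in T cells, and at 26.9 CPM (12.3 to 51.1) and 44.6 CPM (29.1 to 65.4) in NK cells. At the share of macrophage RNA that 12 macrophage markers would give (3.90% and 3.45% of NK cell UMIs and 11.02% of T cell UMIs), macrophage RNA would carry 20.03 and 19.03 CPM of *Atf3* into NK cells and 60.9 CPM into T cells. The first of these lies within the interval of the NK cell level, which was therefore not distinguishable from it. The same shares would carry 62.8 and 64.4 CPM of *Fos* and 21.4 and 23.8 CPM of *Jun* into NK cells, and 206 and 76.1 CPM into T cells. *Ier2* had another order, with macrophages lowest in all 4 libraries (81.3, 97.0, 149 and 121 CPM) and neutrophils highest where there were enough (698, 527 and 673 CPM). In the KO-labelled library at dpi4, T cells led for *Ier2* with 444 CPM (370 to 529).

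The NR4A genes also had different orders of classes. *Nr4a1* (chromosome 15, 101254269 to 101274795, plus strand) was at 2178, 1870 and 2588 CPM in neutrophils, and its neutrophil to macrophage ratio of 14.7 (14.1 to 15.4) in the control at dpi2 was the largest among the 10 genes. *Nr4a2* (chromosome 2, 57106830 to 57124003, minus strand) was instead highest in NK cells in both libraries that had enough of them, at 610 CPM (530 to 700) and 568 CPM (509 to 633). In neutrophils *Nr4a2* was at 151 and 119 CPM at dpi2, below monocytes and dendritic cells in both libraries. In the control at dpi4 it was instead highest in neutrophils, at 401 CPM, with an interval that overlapped that of dendritic cells. It was scarce in macrophages at 49.6, 49.3 and 44.5 CPM, except in the KO-labelled library at dpi2, where it was at 143 CPM (138 to 147).

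Depth per cell differed between the classes compared. Neutrophils had a median of 2308, 3425 and 2822 UMIs per cell, under the named myeloid clusters other than cluster 19, so every cell was also sampled down to 2000 UMIs, which dropped the shallower ones (167 of 634, 54 of 838 and 9 of 128 neutrophils). A thinned neutrophil held a median of 30, 28 and 30 UMIs of the 10 genes together in the control at dpi2, the KO-labelled library at dpi2 and the control at dpi4. Thinned monocytes held 11 to 15, macrophages 8 to 14, dendritic cells 7 to 13, T cells 8.5 and NK cells 5. Neutrophils thus stood above the other classes in thinned cells too. Thinning leaves a cell's expected share of these UMIs unchanged, so the medians restate the CPM per cell and are no separate check. Neither measure gives the amount of these RNAs in a whole cell. Before thinning, the 10 genes had 25395 UMIs in 634 neutrophils and 164473 UMIs in 1986 macrophages of the control at dpi2. Relative to the median, neutrophils spread less, with 10th and 90th percentiles of 15 and 52 UMIs in the control at dpi2, whereas macrophages of the control at dpi4 ran from 1 to 33 around a median of 14.

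**Figure D2:**
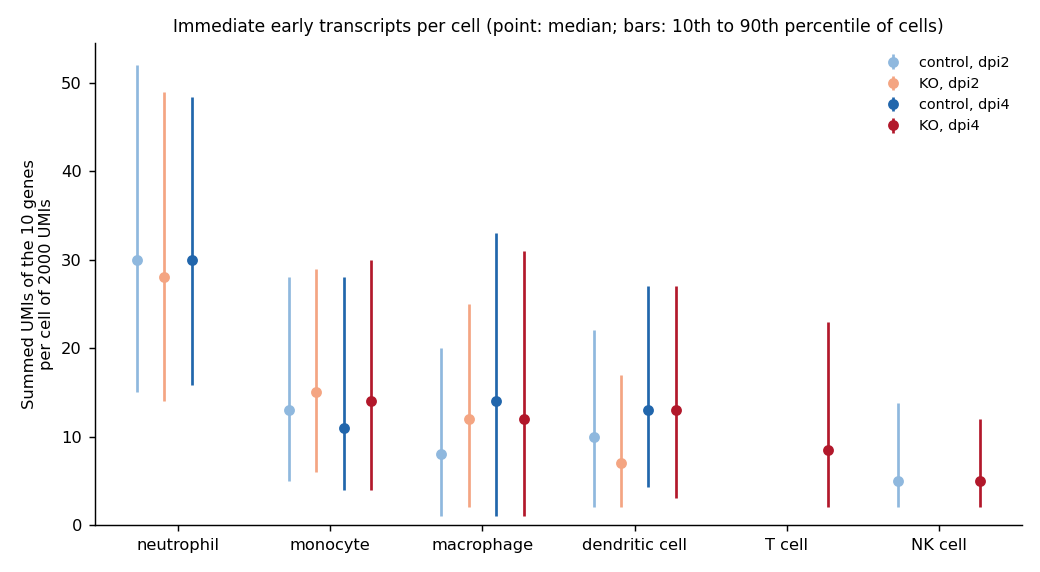
UMIs of the 10 genes together per cell after thinning each cell to 2000 UMIs, by class and library, with the median and the 10th to 90th percentile of cells. Neutrophil medians are 28 to 30, and macrophages spread widely, from 1 or 2 UMIs at the 10th percentile to between 20 and 33 at the 90th.

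Heat shock genes, which encode chaperones and some of which are commonly induced by warm digestion, did not follow the same order. The sum of 11 heat shock genes was 1572, 1323 and 2281 CPM in neutrophils and 3564 to 6334 CPM in the other leukocyte classes. The class with the highest immediate early levels thus had the lowest heat shock sum. *Hspa1a* and *Hspa1b* were a small part of that sum, at 84.3 and 43.9 of 4853 CPM in macrophages of the control at dpi2. The sum thus rests mostly on the other chaperone genes. Any part of the preparation in the levels was not tested.

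**Figure D3:**
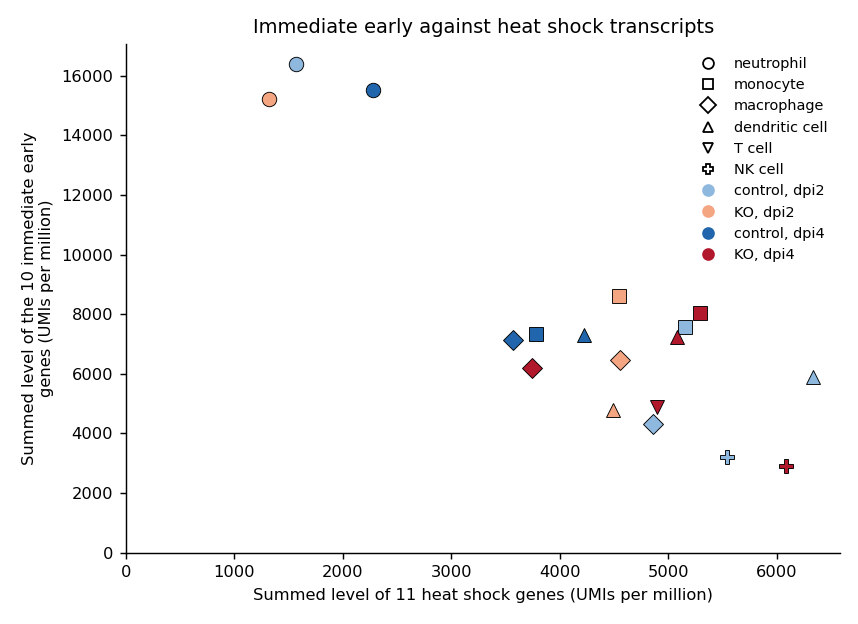
Summed level of the 10 immediate early genes (CPM) against the summed level of 11 heat shock genes (CPM), with 1 point per class and library. Neutrophils lie apart at 15218 to 16386 CPM of the immediate early genes and 1323 to 2281 CPM of the heat shock genes.

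Macrophages were not uniform. Among clusters with at least 50 cells, the summed level in the control at dpi4 ran from 1715 CPM in cluster 19 (led by *Fabp5*, *Syngr1* and *Pf4*, with a median of 2047 UMIs per cell) to 11984 CPM in cluster 6 (*Sepp1*, *Gpr34*, *Fcrls*). Cluster 5, which shared *Sepp1* and *Gpr34* among its leading genes with cluster 6, was at 3857 CPM. In the KO-labelled library at dpi4 the same clusters 6 and 5 were at 11882 and 3070 CPM. Summed heat shock levels of the macrophage clusters lay between 2883 and 3899 CPM in the control at dpi4 and between 3528 and 4621 CPM in the KO-labelled library. Cluster 7 (*Hpgd*, *Cx3cr1*, *Clec4b1*) and cluster 11, led by interferon-induced genes such as *Ifit2*, were also high, at 9779 and 8415 CPM in the control. The clusters were made without the 10 genes and the gene lists below, but with other variable genes.

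The main comparison asked whether the genotype went with a difference in these genes. At dpi2, *Junb*, *Nr4a1* and *Nr4a2* were more than 2-fold higher in macrophages of the KO-labelled library, *Nr4a2* was also higher in monocytes, and no gene was lower by the rule in any class. Over macrophages, monocytes, neutrophils and dendritic cells, 4 of 40 pairs of gene and class passed (10.0%), all higher. Over all genes tested in the same classes, 4.98% passed and 2% were higher. In macrophages 3 of 10 passed, against 4.45% of 11135 genes, and in monocytes 1 of 10, against 4.59%.

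**Figure D4:**
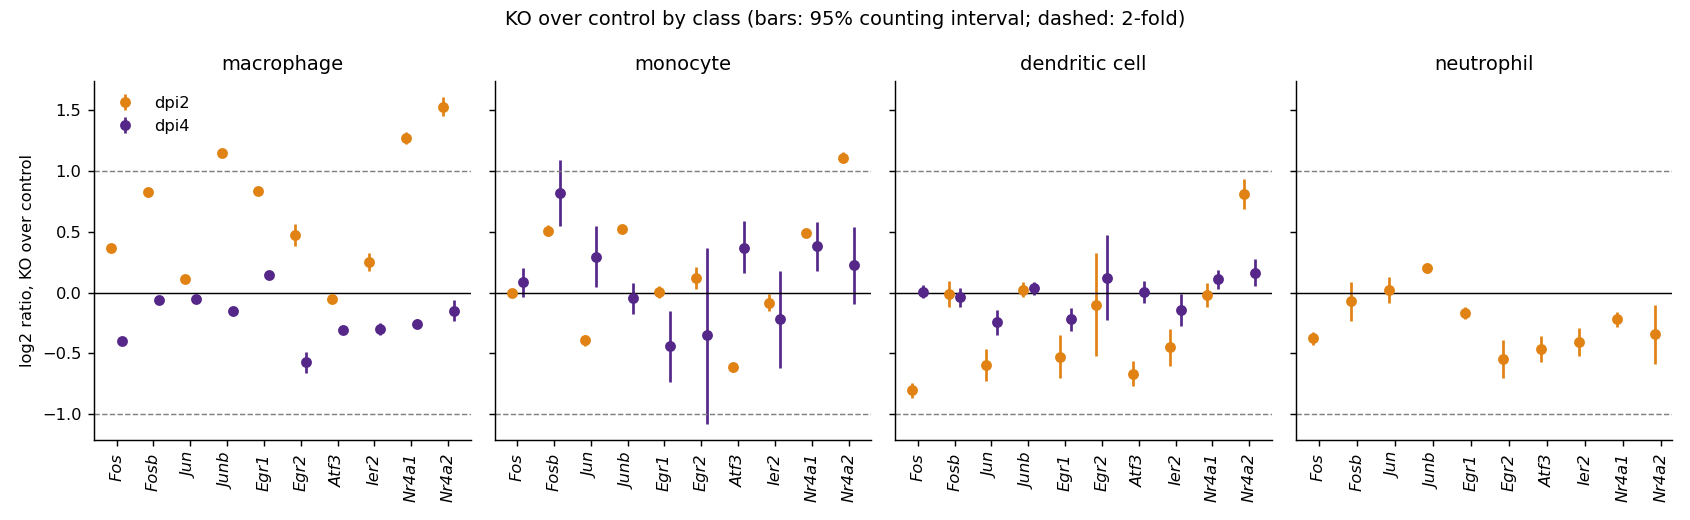
Ratio of the KO-labelled library over the control (log2) for each of the 10 genes by class, at dpi2 and dpi4, with exact 95% intervals for counting error and lines at 2-fold. *Junb*, *Nr4a1* and *Nr4a2* in macrophages and *Nr4a2* in monocytes lie beyond 2-fold at dpi2, and no point does at dpi4.

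*Junb* in macrophages was at 668 CPM (660 to 676) in the control, against 1482 CPM (1468 to 1495) in the KO-labelled library at dpi2, a ratio of 2.22 (2.18 to 2.25). *Nr4a1* was at 148 CPM (144 to 152) and 356 CPM (350 to 363), a ratio of 2.41 (2.33 to 2.49). *Nr4a2* was at 49.6 CPM (47.4 to 51.9) and 143 CPM (138 to 147), a ratio of 2.88 (2.72 to 3.04). In monocytes *Nr4a2* was at 243 CPM (237 to 249) and 524 CPM (512 to 536), a ratio of 2.16 (2.08 to 2.23), while *Junb* at 1.43 (1.41 to 1.45) and *Nr4a1* at 1.40 (1.37 to 1.43) stayed under 2-fold.

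The other genes differed less in macrophages at dpi2. *Egr1* was at 364 and 650 CPM, a ratio of 1.78 (1.75 to 1.82), and *Fosb* at 277 and 490 CPM, a ratio of 1.77 (1.72 to 1.81). *Atf3* was the only one of the 10 with a ratio under 1, at 513 and 494 CPM. The median log2 ratio of the 10 genes was 0.65, beside -0.01 over all genes tested, and their summed level was 1.5-fold (1.49 to 1.51) that of the control. Within the 3 macrophage clusters with at least 50 cells in both libraries, the log2 ratio of the summed level ran from -0.07 to 0.55 and that of *Egr1* from -0.39 to 0.50. Dendritic cells went the other way for several genes, and their summed level was 0.811-fold (0.794 to 0.829) that of the control. There *Fos* was at 1937 CPM in the control and 1111 CPM in the KO-labelled library, and *Nr4a2* at 258 and 452 CPM, a ratio of 1.75 (1.61 to 1.91). In neutrophils the median log2 ratio of the 10 genes was -0.28 and that of all genes tested -0.30, so the genes did not stand apart from that shift. Neutrophil *Junb* was at 4860 and 5579 CPM, a log2 ratio of 0.20, or 0.56 after TMM rescaling between the libraries.

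Markers of other cells moved between these libraries too. The sum of the 8 neutrophil markers, none of them at 0, was 97.6 CPM in macrophages of the control and 286 CPM in the KO-labelled library at dpi2 (monocytes 140 and 325 CPM, dendritic cells 112 and 581 CPM), against 53791 and 74492 CPM in neutrophils themselves. At the shares of neutrophil RNA that these markers would give, 0.182% and 0.383% of macrophage UMIs, neutrophil RNA would carry 8.82 and 21.4 CPM of *Junb*, 3.95 and 7.17 CPM of *Nr4a1* and 0.274 and 0.456 CPM of *Nr4a2* into macrophages. The summed heat shock level of macrophages was 4853 CPM in the control and 4553 CPM in the KO-labelled library, a ratio of 0.938 (0.932 to 0.945), and none of the 11 heat shock genes passed the rule there. In dendritic cells of the KO-labelled library *Hspa1a* and *Hspa1b* were at 0.207 and 0.0839 of the control, and in monocytes at 0.273 and 0.214. Their part in the monocyte and dendritic cell results was not tested.

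The macrophages of the 2 libraries fell into different clusters, and the ratios depended on which. Cluster 1 (*Pdpn*, *Spp1*, *Cd36*) held 60.6% of macrophages in the control and 19.96% in the KO-labelled library at dpi2, and cluster 14 (*Jag1* and *Pdpn* among its leading genes) held 2.97% and 36.6%. These shares are given only to show what the class values rest on, since *Hmox1* was among the leading genes of cluster 14. Within cluster 9 (*Cd163*, *Mrc1*, *Lyve1*; 417 and 329 cells) all 3 genes were again more than 2-fold higher, with ratios of 2.24 (2.17 to 2.31) for *Junb*, 2.09 (1.97 to 2.21) for *Nr4a1* and 3.23 (2.89 to 3.60) for *Nr4a2*. Within cluster 1 they were 1.33 (1.29 to 1.38), 1.03 (0.95 to 1.12) and 1.20 (1.06 to 1.37). Within cluster 14, with 59 cells in the control, they were 1.15 (1.09 to 1.21), 0.838 (0.765 to 0.920) and 1.05 (0.898 to 1.25). The levels of cluster 14 were high in both libraries, at 1441 and 1659 CPM for *Junb* and 156 and 165 CPM for *Nr4a2*. With the 3 clusters weighted equally, an alternative chosen after seeing the data, the macrophage log2 ratios were 0.58, 0.27 and 0.65 in place of 1.15, 1.27 and 1.52, and none of the 3 passed the rule.

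Monocytes of the KO-labelled library at dpi2 lay largely in cluster 13 (*Vcan*, *Dmkn*, *Thbs1*), with 50.6% of them against 1.79% in the control. Within clusters 2 and 3, the monocyte clusters with at least 50 cells in both libraries, the *Nr4a2* ratio was 1.47 (1.36 to 1.59) and 1.68 (1.58 to 1.78). With equal weight the log2 ratio was 0.68 in place of 1.11, which did not pass. In cluster 8, the *Cd209a*-led dendritic cells, the *Nr4a2* ratio was 2.07 (1.88 to 2.29).

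**Figure D5:**
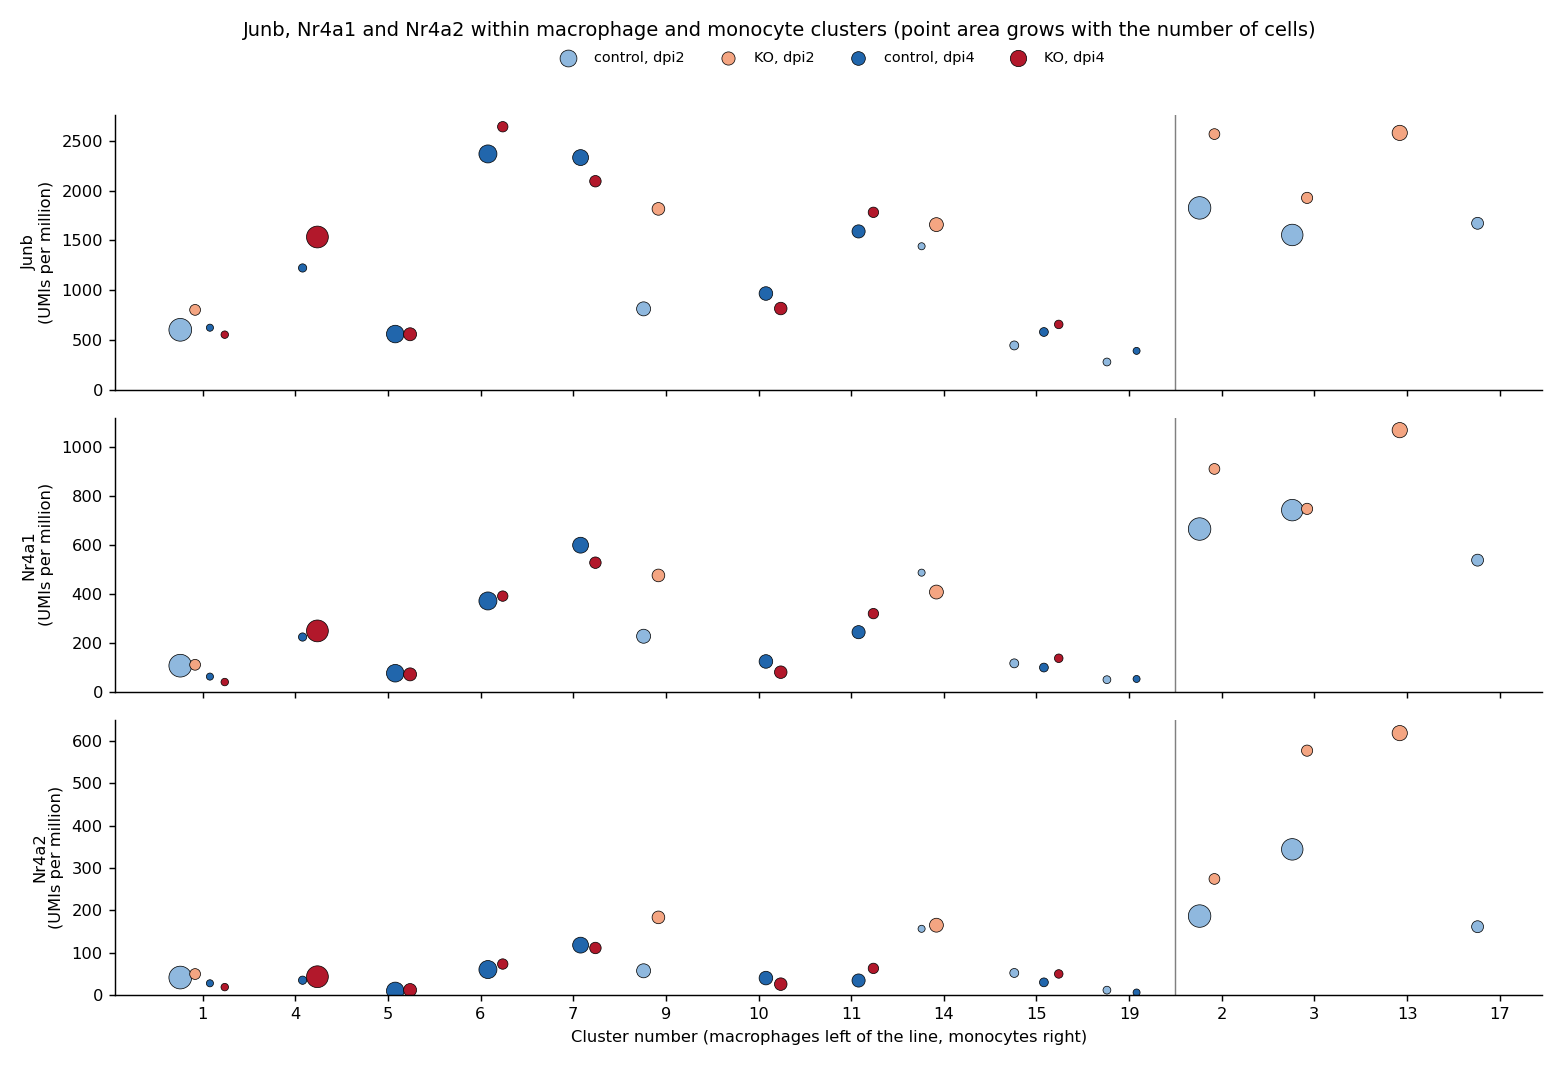
Levels (UMIs per 1000000, linear axes) of *Junb*, *Nr4a1* and *Nr4a2* within single macrophage and monocyte clusters, with 1 point per library that held at least 50 cells and point area growing with the number of cells. At dpi2 the control and KO points separate for all 3 genes in cluster 9 (1817 against 812 CPM for *Junb*) and lie closer together in clusters 1 and 14.

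At dpi4 no gene passed the rule in macrophages, monocytes or dendritic cells (0 of 30 pairs; neutrophils, with 35 cells in the KO-labelled library, were not compared), against 2.16% over all genes tested. Macrophage *Junb* was at 1460 CPM (1450 to 1470) in the control, against 1317 CPM (1307 to 1327) in the KO-labelled library, a ratio of 0.902 (0.893 to 0.912). The *Nr4a1* ratio was 0.837 (0.816 to 0.858) and the *Nr4a2* ratio 0.903 (0.853 to 0.956), both on the other side of 1 from dpi2. With equal weight for each shared cluster, these log2 ratios were 0.05, 0.01 and 0.16, so this did not hold. The lowest macrophage ratio was that of *Egr2*, at 53.4 and 36.0 CPM, a ratio of 0.673 (0.634 to 0.715). The summed level was 0.870-fold (0.866 to 0.874) that of the control, and the median log2 ratio -0.20, beside 0.01 over all genes. Within the 8 macrophage clusters compared, the summed ratio ran from 0.796 to 1.14. *Egr1* was the only one of the 10 above 1 in macrophages, at 744 and 824 CPM. Within the same clusters the *Egr1* ratio ran from 0.886 to 1.79 and was above 1 in 7, and its top value was in cluster 4 (*Slc40a1*, *Spic*, *Il18bp*), at 624 and 1119 CPM. Cluster 4 held 3.31% of macrophages in the control and 41.0% in the KO-labelled library. Heat shock levels in macrophages were 1.05-fold (1.04 to 1.06) those of the control, and *Hspa1b* was 2.55-fold (2.33 to 2.80) higher.

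Between dpi2 and dpi4 in the controls, 4 of 40 pairs passed (10.0%), all higher at dpi4. Over all genes tested, 11.2% passed in either direction and 6.86% were higher. In macrophages 2 of 10 passed (15.7% of all genes, with 9.75% higher), in neutrophils 1 (15%) and in dendritic cells 1. Macrophage *Junb* was at 668 and 1460 CPM, a ratio of 2.19 (2.15 to 2.22), and *Egr1* at 364 and 744 CPM, a ratio of 2.04 (2.00 to 2.08). *Fosb*, at 1.99 (1.95 to 2.04), was just under the limit. The macrophage clusters also changed with time, and within cluster 1 the ratios were 1.04 (0.966 to 1.11) for *Junb* and 0.695 (0.601 to 0.80) for *Egr1*. Within the cycling cluster 15 (*Birc5*, *Top2a*, *Mki67*) they were 1.30 (1.23 to 1.39) and 0.653 (0.589 to 0.724). Within cluster 19, the remaining cluster shared by both controls, they were 1.40 (1.002 to 1.96) and 2.38 (1.45 to 3.96), the latter from 28 and 45 UMIs (102 and 243 CPM). With equal weight for the shared clusters the log2 ratio of *Egr1* was -0.01 in place of 1.03 and that of *Junb* 0.27 in place of 1.13. Summed macrophage levels were 1.65-fold (1.65 to 1.66) higher at dpi4 over the whole class but not within the shared clusters. There the summed ratio was 0.862 (0.837 to 0.887) in cluster 1, 0.957 (0.933 to 0.982) in cluster 15 and 0.935 (0.810 to 1.08) in cluster 19. These clusters held only 1.93%, 4.08% and 1.83% of macrophages in the control at dpi4. Most dpi4 macrophages thus lie outside the within-cluster and equal-weight values. Heat shock genes had a summed ratio of 0.734 (0.730 to 0.739) and 5 of 11 were lower by the rule. The neutrophil pair was *Nr4a2*, at 151 CPM (132 to 172) and 401 CPM (339 to 471), a ratio of 2.65 (2.15 to 3.27) that rests on 149 UMIs from 128 cells at dpi4. In the same neutrophils the summed macrophage markers were at 803 CPM at dpi2 and 3895 CPM at dpi4. Neutrophil markers were at 53791 and 35695 CPM, monocyte markers at 2329 and 678 CPM, and the mitochondrial share at 0.84% and 2.21%. Their part in the *Nr4a2* difference was not tested.

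In dendritic cells *Egr1* was higher at dpi4 in both genotypes. It was at 201 CPM (187 to 217) and 584 CPM (558 to 611) in the controls, a ratio of 2.90 (2.66 to 3.17), and at 140 CPM (127 to 154) and 502 CPM (479 to 525) in the KO-labelled libraries, a ratio of 3.59. Of all genes tested in dendritic cells, 7.41% and 6.57% passed in these comparisons. The sum of the 12 macrophage markers, none of them at 0, in dendritic cells was 633 CPM at dpi2 and 2971 CPM at dpi4 in the controls, and 433 and 2253 CPM in the KO-labelled libraries. Their part in the *Egr1* difference was not tested. Within cluster 8 the ratios were 3.53 (3.23 to 3.87) and 4.23 (3.79 to 4.73). *Hspa1a* and *Hspa1b* moved in opposite directions in the same cells, at 0.343 and 0.170 of the dpi2 level in the controls and 3.52 and 7.0 times that level in the KO-labelled libraries.

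In the KO-labelled libraries, 2 of 30 pairs passed between dpi2 and dpi4 (6.67%, against 10.2% over all genes tested), dendritic cell *Egr1* and macrophage *Nr4a2*, which went from 143 to 44.5 CPM, a ratio of 0.312. Of all genes tested in macrophages, 13.6% passed in that comparison. Macrophage *Nr4a2* thus lay between 44.5 and 49.6 CPM in 3 libraries and stood apart only in the KO-labelled library at dpi2. The summed macrophage level was 0.962-fold (0.956 to 0.967) that of dpi2. These comparisons share libraries with those of the genotypes.

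In macrophages at dpi2, genes related to the 10 were compared in the same way. Of 9 other AP-1 and ATF family genes, 2 were higher in the KO-labelled library and 1 was lower, where 4.45% of all genes tested in macrophages passed in either direction. *Fosl1*, a FOS family gene, was at 1.73 and 6.21 CPM (ratio 3.59, 2.70 to 4.83), *Fosl2* at 83.1 and 167 CPM (2.01, 1.92 to 2.10), and *Batf2* at 4.19 and 1.93 CPM (0.460, 0.335 to 0.624). Of 19 tested other immediate early and feedback genes, 2 were higher and none lower. These were *Nr4a3*, the remaining NR4A receptor gene, at 32.2 and 104 CPM (3.22, 3.01 to 3.44), and *Socs3*, an inhibitor of cytokine signalling, at 30.4 and 82.9 CPM (2.73, 2.55 to 2.93). None of 12 upstream activators, among them *Srf*, *Elk1* and *Creb1*, passed. The median log2 ratios were 0.64, 0.36 and 0.21 for the 3 lists, beside -0.01 for all genes. In monocytes *Nr4a3* (2.51, 2.40 to 2.62) and *Fosl1* (2.37, 1.95 to 2.89) were also higher, and *Batf2* was lower (0.480, 0.332 to 0.679). These list values are sums over the class and were not taken within clusters. At dpi4 *Socs3* was instead lower in macrophages, at 135 and 63.5 CPM (0.469, 0.450 to 0.490), and *Myc*, a growth regulator of the same list, was higher, at 5.02 and 10.8 CPM (2.15, 1.86 to 2.50). Of all genes tested there, 2.3% passed.

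Over 18 points (a class in a library with at least 50 cells), the mean log2 level of the 10 genes was most like that of *Zfp36*, which encodes an RNA-decay factor, with Pearson's r of 0.97 among 10637 genes. *Csrnp1*, *Nlrp3* and *Neat1* followed at 0.96. The gene most like *Nr4a1* was *Pim1* (0.97), that most like *Egr2* was *Tnf* (0.97), and *Nr4a2*, with *Sertad2* at 0.87, had the weakest best match of the 10. The points of a library share its depth and preparation, and those of a class its cell type, so these values only describe the pattern. Among the 10 genes, *Fos* and *Jun* were closest (0.95), with *Junb* and *Nr4a1* next (0.93), and *Jun* and *Nr4a2* were the most opposed (-0.62). From cell to cell in macrophages, the highest single pair, *Fos* with *Junb*, reached 0.60 in thinned cells at dpi4, over a class whose clusters differ in level.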

How the data were processed

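Per the labels and the study's methods, the authors aligned reads with Cell Ranger 6.1.2 to mm10, and the deposited matrices hold raw UMI counts per gene and barcode, without normalization. The chemistry is named differently in the labels and in the methods. Barcodes with a mitochondrial share under 10% and at least 500 detected genes were kept. Those with the top doublet scores were removed (0.8% per 1000 barcodes). The score, written after Scrublet's without running that program, was the share of simulated doublets among a barcode's nearest neighbours. The study used miQC, scDblFinder, Harmony and SingleR, which were not used here. The 4 libraries were clustered together (scanpy 1.11.5, leidenalg 0.10.2; 2000 variable genes without the 10 genes and lists, 30 principal components, 15 neighbours, resolution 1), and the 28 clusters were named from marker genes, with 2 left unnamed. UMIs were summed per class and library. With 1 library per group no replicate error exists. Similar genes were ranked on log2(CPM + 10), among genes with at least 500 UMIs. The ratio scripts were tested on simulated data. Genes named are the 10 members, from each list at most 3 past the size rule per comparison and class (by log2 ratio), the most similar genes, the 3 leading genes of a cluster (1 is not reported here), and *Bach1*, *Lyz2* and *Hmox1*. *Gpr34* in cluster 5, *Hmox1* in cluster 14 and *Apoe* in cluster 16 were named after their values were seen. The members and lists were chosen with earlier results of these data known. The alternatives were no doublet removal, 200 detected genes, mitochondrial limits of 5% and 20%, libraries clustered separately, resolution 2, members and lists among the variable genes, TMM scaling, per-cell means, thinning, other limits of the size rule, pooled monocytes and macrophages, and equal cluster weights.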

Additional observations from a re-analysis of the deposited data

Results flagged for a closer look

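In macrophages, 4 of the 10 genes had ratios of labelled KO over control on opposite sides of 1 at dpi2 and dpi4, each with an interval that left out 1, and with a gap of over 1 on the log2 scale. The difference itself was not tested, since each group was 1 library. For *Junb* the log2 ratio was 1.15 at dpi2 and -0.15 at dpi4, a gap of 1.30. For *Nr4a1* it was 1.27 and -0.26, a gap of 1.53. For *Nr4a2* it was 1.52 and -0.15, a gap of 1.67. For *Egr2* it was 0.47 and -0.57, a gap of 1.05, and neither *Egr2* ratio reached 2-fold. Different clusters made up the macrophages at the 2 time points, and the share of cells in each also differed between the genotypes. With equal weight for each shared cluster, an alternative chosen after seeing the data, the log2 ratios at dpi2 and dpi4 were 0.58 and 0.05 for *Junb*, 0.27 and 0.01 for *Nr4a1*, 0.65 and 0.16 for *Nr4a2* and -0.08 and -0.17 for *Egr2*, so none of the 4 lay on opposite sides of 1. Within single clusters *Egr2* ran from -0.19 to 0.01 at dpi2. At dpi4 it ran from -1.18 to 0.69 over 8 clusters, with 1 of them lower by at least 2-fold.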

How the results depend on the processing

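No paired analysis was possible because each group was 1 library and the groups share only the replicate number 1. At dpi2, 4 pairs of gene and class passed between the genotypes in the main analysis. The count was 11 at a limit of 1.5-fold and 1 with monocytes and macrophages pooled, which was *Nr4a2* in the pooled class. It was 1 with equal weight for each shared cluster, the alternative added after seeing the data. There none of the 4 pairs was kept, and the 1 was *Nr4a2* in dendritic cells. The count was 4 under the other alternatives. At dpi4 the count of 0 became 1 with a mitochondrial limit of 20%, 4 with each library clustered by itself, 2 at resolution 2, 1 after thinning and 1 at 1.5-fold. For dpi4 against dpi2 in the controls, 4 became 7 after TMM rescaling, 6 after thinning, 5 with separate clustering, 5 at resolution 2, 3 with pooled classes, 11 at 1.5-fold and 2 with equal cluster weights. TMM added macrophage *Fosb* and, lower at dpi4, neutrophil *Fos* and *Jun*, whose ratios were 0.550 and 0.612 in the main analysis. It took the log2 ratio of neutrophil *Nr4a2* from 1.41 to 1.02. The macrophage *Egr1* call between the controls was lost with no doublets removed, with at least 200 detected genes and with a mitochondrial limit of 5%. In the KO-labelled libraries, 2 became 4 with at least 200 detected genes, 5 with separate clustering, 10 at 1.5-fold, 4 with pooled classes, 4 with equal weights and 3 at resolution 2, with the lists among the variable genes, after TMM rescaling, with per-cell means and after thinning. Macrophage *Egr1* between the controls reversed with equal weights, to a log2 ratio of -0.0127, over shared clusters that held few of the dpi4 macrophages. The cause of these moves was not tested beyond the clusters' own values. The log2 ratio of macrophage *Nr4a2* between the genotypes at dpi2 ranged from 0.65 with equal weights to 1.85 with separate clustering. No replicate could be left out. Depth limits mainly NK and T cells, where *Egr2* had 3 to 6 UMIs, and dpi4 monocytes, with 52 and 61 cells.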

Other observations

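A cluster that no class name fitted by the fixed criteria (cluster 12, led by *Il1f9*, *Mirt1* and *Ccl3*) held 86 cells of the control and 460 of the KO-labelled library at dpi2. Neutrophils were its best match, with 7 neutrophil markers detected. It stayed unnamed because its cells were shallow and none of these markers was among its 10 leading genes. Its median was 3421.5 UMIs per cell, beside 2900 in neutrophil cluster 0. The neutrophil values above leave its cells out. Its summed level of the 10 genes was 9477 and 10859 CPM, between neutrophils and macrophages. *Egr1* was at 2029 and 2904 CPM in it, a ratio of 1.43 (1.31 to 1.57), and *Junb* at 2919 and 3003 CPM, a ratio of 1.03 (0.952 to 1.11). *Nr4a1* was at 527 and 701 CPM, a ratio of 1.33 (1.11 to 1.60). *Nr4a2* had 2 and 53 UMIs, or 7.99 and 31.4 CPM, a ratio of 3.93 (1.03 to 33.3). Cluster 16, in which muscle genes such as *Acta1* stood beside *Apoe* among the leading genes, was left out of the macrophages. It held 318 cells of the control and 59 of the KO-labelled library at dpi4, with summed levels of 7837 and 7006 CPM.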
